A study of Mus musculus with 4 samples.

Results

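The 9 genes described here encode transcription factors that pattern the telencephalon and mark its dorsal side: Emx1, Emx2, Dmrt3, Dmrta2, Lhx2, Otx1, Otx2, Nr2f1 and Nr2f2. They were chosen by name, and all of their probe sets that the platform annotation assigns to that gene symbol alone were used, which gave 18 of the 45137 probe sets and 9 of the 18193 gene symbols on the arrays. The material was neurospheres, floating cultures of neural stem and progenitor cells, grown from mouse embryos at E12.5 (mid-gestation). Both genotypes are labelled as forebrain, ventral telencephalon. There was 1 RNA sample of wild-type spheres (E2F4WT) and 1 of E2f4 knockout spheres (E2F4KO), and each was hybridised to an Affymetrix MOE430A and an MOE430B array, 4 arrays in all. The strain, the number of embryos behind each sample, the E2f4 allele and the time in culture are not given in the sources used here. With 1 sample per genotype, no value below carries an error across samples or a p-value, and each difference is between these samples.

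The dorsal telencephalon becomes the cortex and the ventral telencephalon the basal ganglia. Lhx2 gives the early neuroepithelium its cortical identity, Emx2 and the Dmrt factors act in graded fashion from the caudal and medial side of the cortex, and Nr2f1 and Nr2f2 (COUP-TFI and COUP-TFII) pattern caudal and lateral regions of both cortex and ganglionic eminences. Otx2 is needed to form forebrain and midbrain, and Otx1 acts later in the growth of the cortex. E2f4 encodes a transcription factor of the E2F family, best known as a repressor of cell-cycle genes.

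The targeted gene itself gave a signal of 1812 in wild-type spheres and 1535 in knockout spheres on its 1 probe set, a log2 ratio of -0.25, and the sources used here do not say whether that probe set reads the deleted part. For each design, both genotypes were hybridised on 1 day. Their median signals lay between 735 and 942, and the ratio of 3' to 5' signal of Gapdh and Actb, a sign of RNA integrity, between 0.799 and 1.25. Xist, the RNA that coats the inactive X chromosome of female cells, was at 8980 in wild-type spheres and 1178 in knockout spheres on its brightest probe set. On its others Xist read 1817 in wild-type spheres and 47.1 in knockout spheres, and 225 and 41.8. Its part in the differences below was not tested.

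A probe set was called measured where both samples reached a floor, the median signal of its array design, which was 736 for MOE430A and 942 for MOE430B. Log2 ratios are knockout over wild type and were centred on the median of the design. Of the 18 probe sets of these factors, 10 were measured, 4 reached the floor in the knockout sample alone, 1 in the wild type alone and 3 in neither. Only those 10 give a ratio, and they represent 7 of the 9 genes. None of the 7 measured genes differed by 2-fold or more, where 1.01% of all 10171 measured genes did. Otx1, which reached the floor in the knockout sample alone, was the 1 member with a bound above 2-fold. The measured members ran from -0.53 to 0.91 on the log2 scale, 3 higher and 4 lower in knockout spheres. Their median was -0.13 against -0.01 over all measured genes. That median leaves out both Otx genes, and with them entered at their bounds it was 0.31. The 9 factors therefore had no common direction: Dmrta2, Otx1, Otx2, Emx2 and Lhx2 read higher in the knockout sample, Nr2f1 and Nr2f2 read lower, and the probe sets of Emx1 and Dmrt3 disagreed.

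**Figure D1:**
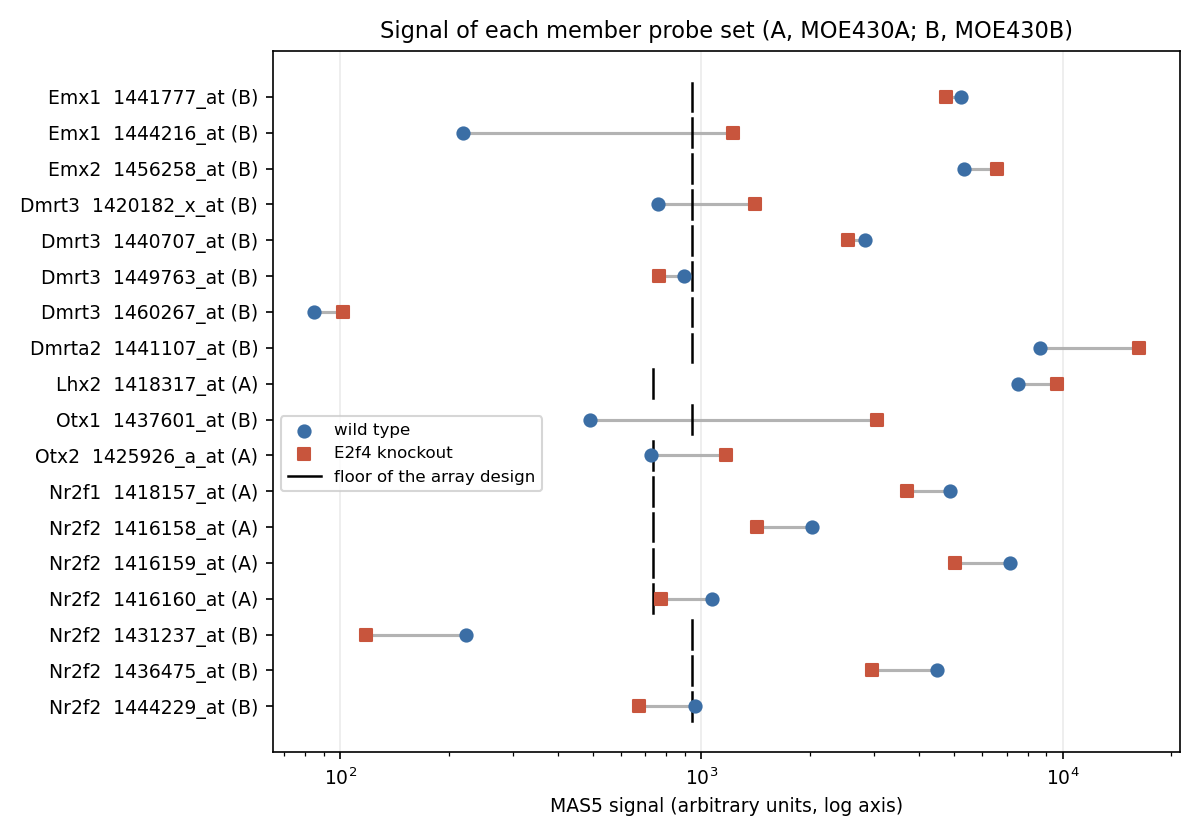
MAS5 signal (arbitrary units, log axis) of each of the 18 probe sets of the 9 factors in the wild-type sample (blue circles) and the E2f4 knockout sample (red squares), 1 array each, with the floor of the array design as a black tick. All 6 Nr2f2 probe sets were lower in the knockout sample, and Otx1 lay below the floor in the wild type at 490 and above it in the knockout at 3071.

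Lhx2, a LIM-homeodomain factor of cortical identity, was represented by 1 probe set on MOE430A (1418317_at). Its signal was 7552 in wild-type spheres and 9658 in knockout spheres, a log2 ratio of 0.35 or 1.27-fold higher. Among the 997 MOE430A probe sets within 1.5-fold of its mean signal, 9.73% lay at least as far from 0. The difference was therefore within what many probe sets of similar brightness showed.

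The Emx genes are homeobox genes of the cortex, Emx1 marking the dorsal progenitors and their descendants and Emx2 graded towards the hippocampal side. Emx2 had 1 probe set (1456258_at on MOE430B), which read 5324 in wild-type spheres and 6592 in knockout spheres, a log2 ratio of 0.31. Of 1615 probe sets of similar signal, 30.2% lay at least as far from 0. Emx1 had a pair of probe sets on MOE430B that disagreed. The brighter one (1441777_at) read 5228 in wild-type spheres and 4753 in knockout spheres, a log2 ratio of -0.13. The dimmer one (1444216_at) read 219 in wild-type spheres, below the floor, and 1224 in knockout spheres, which makes it at least 1.30-fold higher there. Emx1 and Emx2 were thus above the floor in both samples on their brighter or only probe set, although the labels name the ventral telencephalon as the source. In bulk RNA, more cells expressing a gene and more RNA per cell cannot be told apart.

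Emx2 has an antisense neighbour, Emx2os, whose RefSeq annotation (GRCm38.p6) lies 55 bases from that of Emx2 on chromosome 19. Its 1 probe set (1456559_at) read 1154 in wild-type spheres and 1808 in knockout spheres, a log2 ratio of 0.65. Both neighbours read higher in knockout spheres. The 300 bases around the Emx2 start site, chr19:59458440-59458739 on the plus strand of GRCm38.p6 from RefSeq, are shown because they span the gap between these annotations. Capitals mark the motifs CCAAT, bound by NF-Y, and TAATTA, a core of homeodomain binding sites that reads the same on both strands.

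Emx2: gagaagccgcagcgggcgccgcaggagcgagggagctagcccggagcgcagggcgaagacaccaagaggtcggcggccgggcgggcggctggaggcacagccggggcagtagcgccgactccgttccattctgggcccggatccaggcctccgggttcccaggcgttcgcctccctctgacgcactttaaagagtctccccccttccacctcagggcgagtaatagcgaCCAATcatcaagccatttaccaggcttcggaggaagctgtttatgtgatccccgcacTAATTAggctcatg

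Dmrt3 and Dmrta2 encode doublesex-related zinc finger factors of the medial cortex, where they act with Emx2 to hold back ventral fates. Dmrta2 had the highest ratio of the 7 measured members. Its 1 probe set (1441107_at on MOE430B) read 8664 in wild-type spheres and 16234 in knockout spheres, a log2 ratio of 0.91 or 1.88-fold higher. At this brightness such a ratio was uncommon: of the 540 MOE430B probe sets within 1.5-fold of its mean signal, 3 including Dmrta2 lay at least as far from 0, and their log2 ratios had an SD of 0.27. It ranked 84 from the top of the 10171 measured genes of both designs. Among all measured MOE430B probe sets, whatever their brightness, 4.16% lay at least as far from 0. No second probe set of Dmrta2 was there to compare. Its relative Dmrta1, which belongs to the partner genes described further down, read 880 in wild-type spheres, below the floor, and 1541 in knockout spheres, at least 1.64-fold higher.

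Dmrt3 had 4 probe sets on MOE430B that gave no single direction. The brightest (1440707_at) read 2845 in wild-type spheres and 2538 in knockout spheres, a log2 ratio of -0.16. A second (1420182_x_at), whose suffix marks probes that can match other transcripts, read 757 and 1410 which gives a log2 bound of 0.58 on the higher side. The other two were below the floor in both samples, at 892 and 764 for 1449763_at and at 84.6 and 102 for 1460267_at. Neighbouring genes of the same cluster, Dmrt1 and Dmrt2, were also below the floor in both samples.

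The Dmrta2 start region, chr4:109977775-109978074 on the plus strand of GRCm38.p6 from RefSeq, is shown because this member had the largest measured ratio. Capitals mark CCAAT, which occurred 3 times in this window, at 99, 70 and 45 bases before the start site. Of all 32851 RefSeq promoter windows of this length, 37.4% held CCAAT on either strand and 5.29% held TAATTA. These matches are letters in a window and were not tested as binding sites.

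Dmrta2: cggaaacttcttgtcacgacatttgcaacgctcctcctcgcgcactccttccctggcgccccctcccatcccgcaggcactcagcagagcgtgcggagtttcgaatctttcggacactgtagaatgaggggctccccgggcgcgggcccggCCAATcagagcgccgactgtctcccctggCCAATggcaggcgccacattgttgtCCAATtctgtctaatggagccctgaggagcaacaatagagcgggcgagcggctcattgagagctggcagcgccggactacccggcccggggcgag

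Because E2f4 is the gene labelled as deleted, the windows of these factors were also searched on both strands for 4 spellings of the E2F site, TTTCCCGC, TTTCGCGC, TTTGCCGC and TTTGGCGC, and for TTTGAA, the CHR element read by the DREAM repressor complex of which E2F4 is a part. RefSeq windows were there for 8 of the 9 genes, 13 windows in all, with none for Otx1. None of the 13 held either motif, and 2.26% of all windows held an E2F spelling and 17.9% TTTGAA. This says only that these letters do not occur in these windows.

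The Otx genes encode homeobox factors of the anterior neural plate, and both reached the floor only in knockout spheres. Otx1 (1437601_at on MOE430B) read 490 in wild-type spheres and 3071 in knockout spheres, which makes it at least 3.26-fold higher. Among 1807 genes without a measured probe set that reached the floor in 1 sample, 6.81% had a bound of 2-fold or more in either direction. Of the 1731 MOE430B probe sets that reached the floor in the knockout sample alone, 9.42% had a bound of 2-fold or more, and 0.924% had one as high as Otx1. With a higher floor, the 70th percentile, its bound was 0.81 on the log2 scale, under 2-fold. Otx2 (1425926_a_at on MOE430A) read 726 in wild-type spheres, just below the floor, and 1170 in knockout spheres, at least 1.59-fold higher. On MOE430A 0.973% of 925 such probe sets had a bound of 2-fold or more, a limit that Otx2 did not reach. The share with a bound as high as that of Otx2 was not computed. Both Otx genes therefore read higher in the knockout sample, each on 1 probe set and each against a dim wild-type value.

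Otx2 also marks the choroid plexus, the retina and the diencephalon and midbrain, so markers of those regions were read beside it. Of 10 choroid plexus genes on the arrays, Otx2 itself among them, 2 were measured: Clic6, a chloride channel protein, at 0.00 and Kcnj13, a potassium channel, at 0.36. All 4 probe sets of Ttr, the defining transport protein of this tissue, lay below the floor in both samples. Folr1, a folate receptor of the choroid plexus, reached the floor in knockout spheres alone, at 957 against 530 with a log2 bound of 0.38. Without Otx2 itself, the summed signal of the list was 2638 in wild-type spheres and 2872 in knockout spheres on MOE430A, where 10 of its 12 probe sets with Otx2 were below the floor in both, and 6433 and 6810 on MOE430B. Of 15 diencephalon and midbrain genes, 2 were measured, Otp, a homeobox gene of the hypothalamus, at -0.48 and Sim1, its partner in hypothalamic neurons, at 0.18. Irx1 and Irx3, Iroquois homeobox genes, reached the floor in knockout spheres alone as Otx2 did, Irx1 at 870 against 525 with a log2 bound of 0.24 and Irx3 at 880 against 451 with one of 0.26. Lmx1b of the midbrain reached it in wild-type spheres alone, at 1149 against 929. The other 10 genes on the arrays were below it in both. All 15 genes together, Otp and Lmx1b included, summed to 5369 in wild-type spheres and 6037 in knockout spheres on MOE430A. There 13 of their 16 probe sets were below the floor in both samples. On MOE430B these genes summed to 8554 and 7122, of which the measured Otp probe set gave 7008 and 5004. Of 8 retina genes, Crx, a photoreceptor factor related to the Otx genes, was the 1 measured, at 0.20. The list summed to 4344 in wild-type spheres and 4918 in knockout spheres, with 10 of its 12 probe sets below the floor in both. Dct, a pigment cell enzyme, reached the floor in knockout spheres alone, at 938 against 605 with a log2 bound of 0.35, and Tyr, another, was below it in both. The part of these cell types in the Otx values was not tested.

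Nr2f1 and Nr2f2, the COUP-TF orphan nuclear receptors, were lower in the knockout sample, and Nr2f2 was the 1 member with more than 1 measured probe set. Nr2f1 (1418157_at on MOE430A) read 4874 in wild-type spheres and 3712 in knockout spheres, a log2 ratio of -0.40 or 1.32-fold lower. Of 2217 probe sets of similar signal, 9.34% lay at least as far from 0. Nr2f2 read lower in the knockout sample on all 6 of its probe sets, which lie on both array designs. On MOE430A, 1416159_at read 7157 in wild-type spheres and 5033 in knockout spheres. The next, 1416158_at, read 2021 and 1423, and 1416160_at read 1072 and 772. On MOE430B, hybridised on another day, 1436475_at read 4504 in wild-type spheres and 2972 in knockout spheres. These 4 measured probe sets gave log2 ratios between -0.60 and -0.48, with a mean of -0.53 ± 0.05 (SD over 4 probe sets of the same RNA samples), or 1.44-fold lower. Of the other two, 1444229_at read 961 in wild-type spheres and 670 in knockout spheres, and 1431237_at was below the floor in both at 223 and 118.

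The SD of 0.05 among the measured Nr2f2 probe sets was below the pooled SD on these arrays. Probe sets of the same gene had a pooled SD of 0.33 over 3956 genes with more than 1 measured probe set. That value pools both designs and every measured brightness, and widely spread genes raise it. The share of genes with an SD as small as 0.05 was not computed. The SD of the difference between designs, which is another measure, was 0.31 for 99 probe sets present on both. Among 527 genes with at least 4 measured probe sets, 6.83% had all of them lower in the knockout sample. No other gene among these had every probe set at or below -0.48, the highest Nr2f2 value, a limit set after the values were seen. In size the difference was moderate, since 4.87% of all measured genes lay as far down or farther. Among probe sets of similar signal, 3.09% lay at least as far from 0 for 1416159_at and 10.4% for 1416158_at. The share was 15.6% for 1416160_at and 11.5% for 1436475_at. The probe sets read the same pair of RNA samples, so their agreement bears on the measurement of these samples and not on the genotypes.

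**Figure D2:**
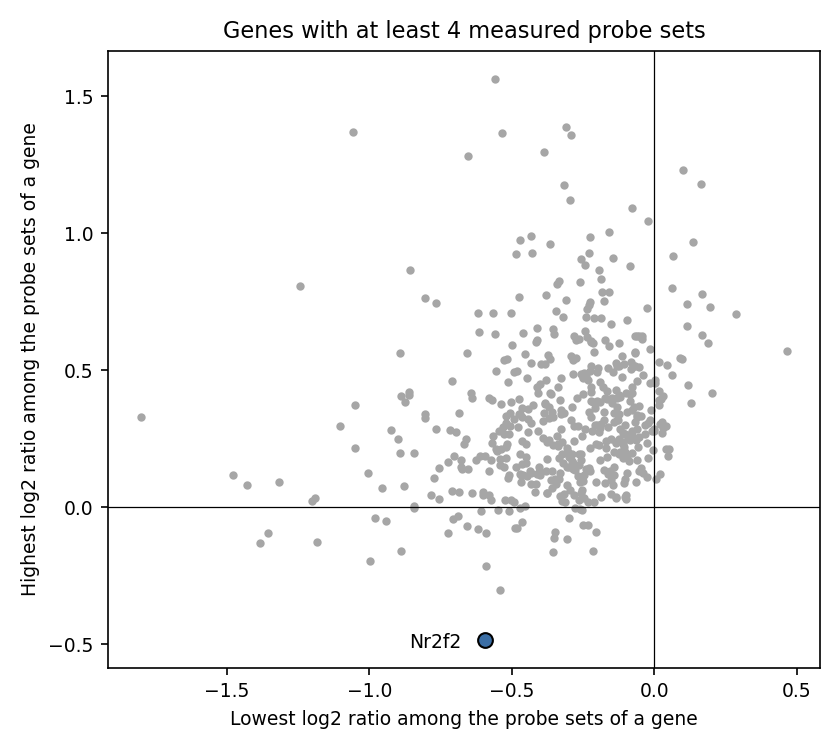
Lowest (x axis) and highest (y axis) log2 ratio, knockout over wild type, among the measured probe sets of each of 527 genes with at least 4 of them (grey points). Nr2f2 (blue) lies at -0.60 and -0.48, below every other gene on the y axis.

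The start regions of both receptors are shown because this pair read lower together: for Nr2f2 chr7:70366697-70366996 and for Nr2f1 chr13:78198824-78199123, both on the minus strand of GRCm38.p6 from RefSeq. They are printed from 5' to 3' on the strand of the gene, with CCAAT on either strand in capitals, and TAATTA occurred in neither. The Nr2f1 window shown had a GC content of 68.0% with 23 CG dinucleotides and no CCAAT. Another RefSeq window of Nr2f1, chr13:78196400-78196699, had a GC content of 43% with 4 CG dinucleotides and is not shown. The Nr2f2 window had a GC content of 49.7% with 2 CG dinucleotides and a CCAAT match on each strand. Over all windows the median was 52.7% GC and 7 CG dinucleotides.

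Nr2f2: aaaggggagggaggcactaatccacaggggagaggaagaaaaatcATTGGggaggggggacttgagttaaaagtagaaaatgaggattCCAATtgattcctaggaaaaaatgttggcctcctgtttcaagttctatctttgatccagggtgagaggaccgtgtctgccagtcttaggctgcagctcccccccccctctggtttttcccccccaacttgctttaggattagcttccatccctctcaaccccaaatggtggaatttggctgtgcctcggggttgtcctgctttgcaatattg

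Nr2f1: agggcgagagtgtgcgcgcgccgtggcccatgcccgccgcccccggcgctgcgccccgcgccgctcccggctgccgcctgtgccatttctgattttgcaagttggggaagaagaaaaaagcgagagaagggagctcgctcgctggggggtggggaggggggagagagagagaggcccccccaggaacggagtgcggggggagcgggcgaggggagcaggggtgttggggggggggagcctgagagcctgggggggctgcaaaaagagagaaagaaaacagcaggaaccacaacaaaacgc

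Nr2f2 is also made by endothelial and mesenchymal cells, whose markers were read beside it. Of 13 endothelial genes 5 were measured, 2 higher and 3 lower, with a median of -0.14. Kdr, a VEGF receptor, was at 0.37 and Cldn5, a tight junction protein, at 0.14, while Egfl7, a secreted endothelial protein, was at -0.40, Eng, a TGF-beta co-receptor, at -0.40 and Esam, an adhesion molecule, at -0.14. That median turned to 0.14 when probe sets named _x_at, _s_at or _a_at were left out and to 0.37 with the floor at the 70th percentile. Sox18, a factor of vessel growth, reached the floor only in wild-type spheres, at 950 against 513, with a log2 bound of -0.37, and Emcn, Sox17 and Flt1 did so only in knockout spheres. Flt1, another VEGF receptor, was at least 2.36-fold higher in knockout spheres on 1 of its 4 probe sets, and the other 3 were below the floor in both. Among MOE430B probe sets above the floor in knockout spheres alone, as this 1 was, 9.42% had a bound of 2-fold or more. Pecam1 and Cdh5, which define endothelium, were below the floor in both samples. The endothelial list summed to 13298 in wild-type spheres and 12340 in knockout spheres on MOE430A, and its 1 probe set on MOE430B, of Flt1, read 244 and 2226. Of the endothelial probe sets on MOE430A, 13 of 21 lay below the floor in both samples. Of 12 mesenchymal and meningeal genes 1 was measured, the collagen gene Col1a2 at 0.09, and 20 of the 21 probe sets of this list on MOE430A lay below the floor in both samples. It summed to 5229 and 6555 on MOE430A and 3181 and 2519 on MOE430B. Dcn, a matrix proteoglycan, reached the floor in wild-type spheres alone, with a log2 bound of -0.39, and Pdgfra, a growth factor receptor of mesenchyme, in knockout spheres alone, with one of 0.09.

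The design of the array matters for how these values read. The measured log2 ratios had an SD of 0.29 on MOE430A and 0.43 on MOE430B, and 0.471% of measured probe sets on MOE430A against 2.94% on MOE430B differed by 2-fold or more. Lhx2, Otx2, Nr2f1 and 3 of the Nr2f2 probe sets were on MOE430A. All probe sets of the Emx, Dmrt and Otx1 genes were on MOE430B, the design with the wider spread.

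**Figure D3:**
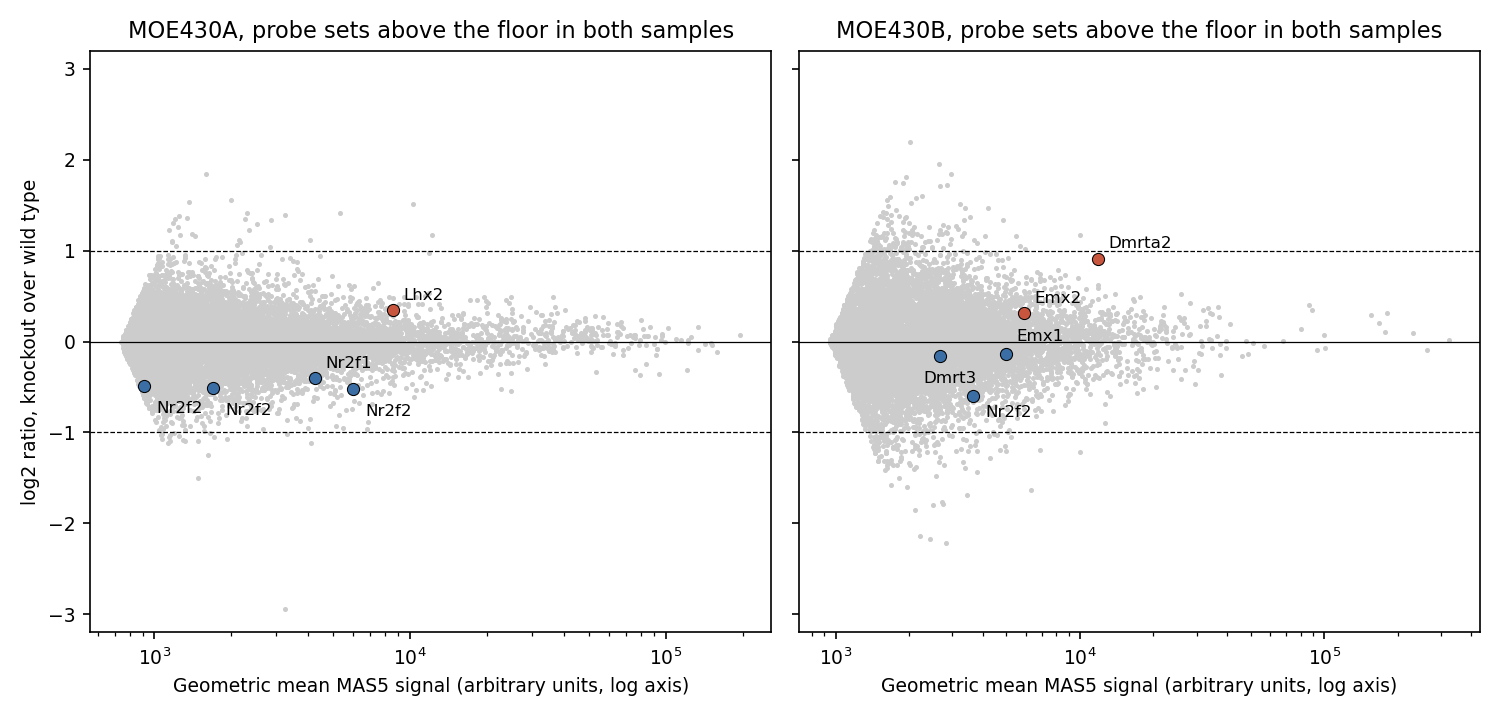
Log2 ratio, knockout over wild type, against geometric mean MAS5 signal (log axis) for the probe sets above the floor in both samples on MOE430A (left) and MOE430B (right), grey, with the 10 measured probe sets of the patterning factors in red (higher in the knockout sample) or blue (lower) and dashed lines at 2-fold. Dmrta2 at 0.91 stands at the upper edge of MOE430B probe sets of its brightness, and the Nr2f2 probe sets lie between -0.60 and -0.48 on both designs.

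Other genes of telencephalic patterning were read from lists written with earlier results of these arrays known. Among partner transcription factors, 21 of 23 genes on the arrays were measured, 14 higher and 7 lower in knockout spheres, none by 2-fold. The median was 0.14, where 48.6% of all measured genes were higher. The farthest were Lef1, the nuclear effector of Wnt signalling needed for the hippocampus, at 0.84, Eomes of intermediate progenitors at 0.67, Fezf2 of deep-layer neurons at 0.62 and Sall3, a zinc finger factor, at -0.64. The Lef1 value rests on 1 probe set, which read 1657 in wild-type spheres and 2966 in knockout spheres. Both probe sets of Sall3 were lower, reading 1552 and 2676 in wild-type spheres and 1069 and 1606 in knockout spheres. Dmrta1 and Neurog1, the partners without a measured probe set, reached the floor in knockout spheres alone. Neurog1 did so on both of its probe sets, at 797 against 179 and at 1130 against 558, with log2 bounds of 0.12 and 0.62.

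The cortical hem is a dorsal midline source of Wnt and BMP signals that acts upstream of Emx2 and Dmrta2 and that Lhx2 keeps from spreading. Of 20 hem and midline genes on the arrays, 8 were measured, 5 higher and 3 lower, with a median of 0.09. Wnt8b, a marker of the hem and medial cortex, was at 0.38, with signals of 2493 and 3226 on the 1 measured of its 3 probe sets. Wnt3a, the main hem ligand, was at 0.22, Zic5, a midline zinc finger factor, at 0.21 and Wnt7b, expressed in the cortex, at -0.22. Of the genes without a measured probe set, Wnt2b reached the floor in knockout spheres alone and Bmp7, Msx1, Rspo1 and Rspo3 in wild-type spheres alone, each with a bound under 2-fold. Bmp4, Bmp6, Gdf10 and Lmx1a, which define the hem and roof, were below the floor in both samples. Among anterior and antihem signals, 11 of 15 genes were measured, 4 higher and 7 lower, with a median of -0.03. Fgf8, the anterior organiser signal that opposes Emx2 and Nr2f1, was below the floor in both samples. Fgfr2, a receptor for it and related ligands, was at -0.03 on 2 measured probe sets. A further probe set on MOE430B read 584 in wild-type spheres and 1998 in knockout spheres, at least 2.12-fold higher. Of the 1731 MOE430B probe sets above the floor in knockout spheres alone, 9.42% had a bound of 2-fold or more.

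The labelled tissue and cell type were checked against their markers. All 14 neural stem and progenitor genes were measured, 10 higher and 4 lower, with a median of 0.05. Vim, an intermediate filament protein of progenitors, was at 0.08, Fabp7, a lipid-binding protein of radial glia, at 0.25 and Nes, the filament nestin, at -0.05. Pax6, a dorsal progenitor factor also on the partner list, was at 0.43. Hes5, a Notch target, had probe sets at -0.25 and -1.50, with a mean of -0.87, and Sox1, a factor of neural progenitors, had probe sets at -0.14 and -1.10, with a mean of -0.62. Ventral telencephalon genes were above the floor in both samples for 11 of 15 on the arrays, and all 11 read lower in knockout spheres; their median was -0.42. Dlx1 and Dlx2, homeobox factors of the eminences, were at -0.28 and -0.54, Gad2, which makes GABA, at -0.64 and Lhx8, a factor of cholinergic neurons, at -1.03. Lhx6, of migrating interneurons, reached the floor only in wild-type spheres on both of its probe sets. The brighter read 2678 in wild-type spheres and 597 in knockout spheres, at least 3.64-fold lower. The dimmer read 902 and 539, with a log2 bound of -0.29. The share of probe sets with such bounds among those above the floor in wild-type spheres alone was not computed. The ventral list summed to 41988 in wild-type spheres and 29482 in knockout spheres on MOE430A and 12641 and 8528 on MOE430B. Nr2f1 and Nr2f2, which are made in the ganglionic eminences as well as in the cortex, were lower alongside these ventral genes, and the part of a different share of ventral cells in any value above was not tested.

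**Figure D4:**
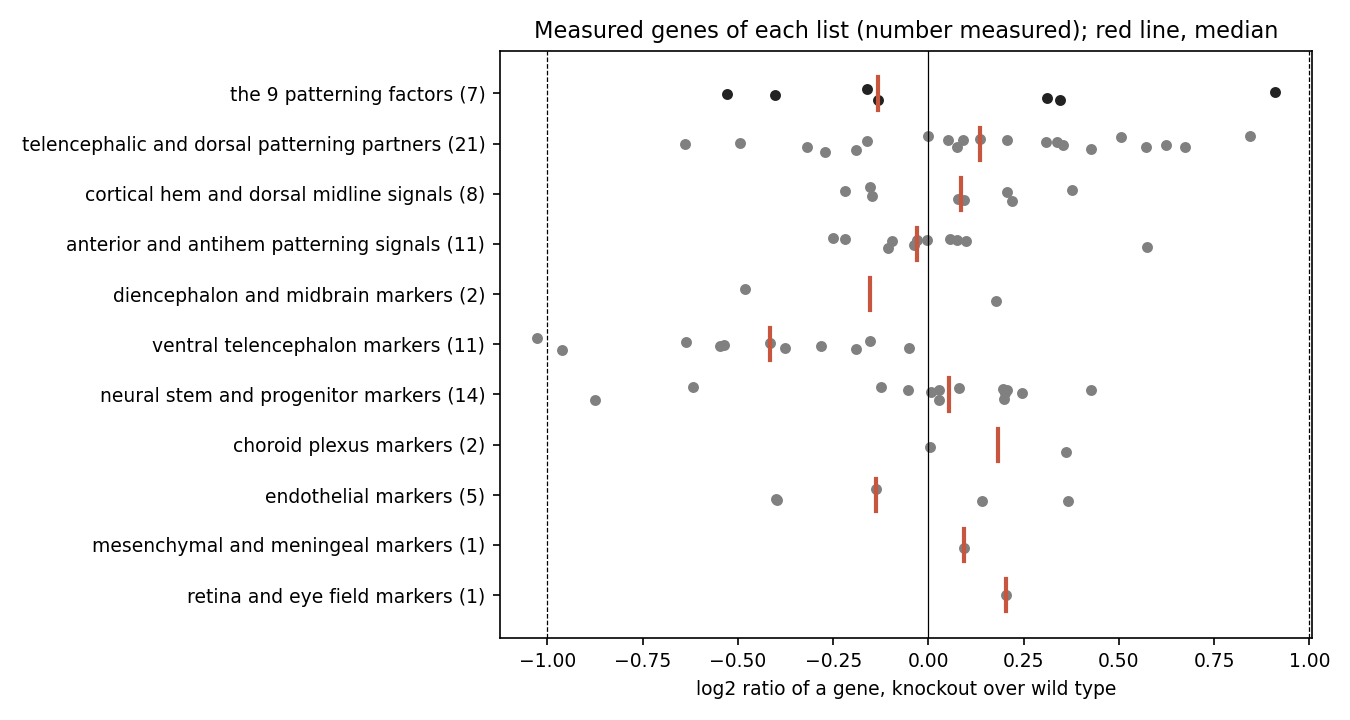
Log2 ratio, knockout over wild type, of each measured gene (points, spread vertically at random for legibility) in the 9 patterning factors and 10 related lists, with the number measured in brackets, red lines at the medians and dashed lines at 2-fold. The 7 measured patterning factors lie between -0.53 and 0.91, and all 11 measured ventral genes lie below 0.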

How the data were processed

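Total RNA was prepared with RNeasy columns and made into biotin-labelled cRNA without amplification, per the labels' protocols. The deposited values are signal intensity on a linear scale, scaled per array by the authors; MAS5 is named in the submitters' processing notes, and its version and scaling target are not given in the sources used here. No detection calls were used here.

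The 64 control probe sets per design were left out. Signals were taken to log2, and ratios within each design were centred on the median over all probe sets, by subtracting 0.01 on MOE430A and -0.004 on MOE430B. The floor was the 50th percentile of the design's signals. Genes were given the average ratio of their measured probe sets. A bound is the brighter signal over the floor. The platform annotation gave 1 symbol to 20380 and 14661 probe sets, several to 691 and 245 and none to 1555 and 7605 on MOE430A and MOE430B. The identifiers of all 9 genes carried the same symbol in a RefSeq table of GRCm38.p6. A called difference is 2-fold or more, with no test, since there was 1 sample per genotype; the number of arrays limits the precision. No error across samples could be computed. Signals of different probe sets were ordered or summed only to choose the brightest and to total a list, and no level of 1 gene was set against that of another.

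The members and lists were chosen with earlier results of these data known. Named are all members, E2f4 and, of each list, the genes with a 2-fold ratio or bound or else the 4 measured genes farthest from 0, and the 3 brightest of each marker list. Xist, Dmrta1, Neurog1, Emx2os, Eng, Egfl7, Esam, Sox18, Emcn, Sox17, Irx1, Irx3, Folr1, Wnt2b, Bmp7, Msx1, Rspo1, Rspo3, Dmrt1, Dmrt2, Ttr, Pecam1, Cdh5, Bmp4, Bmp6, Gdf10, Lmx1a and Fgf8 were named after their values were seen. Genes most alike in pattern were not sought, since each gene has a single ratio. The procedure was tested on simulated arrays. The settings tried instead were other floors (the 30th and 70th percentiles, or none), the floor added as a pseudocount, no centring, quantile normalization, lowess (span 0.3), the single brightest probe set, leaving out _x_at, _s_at and _a_at probe sets, and each design alone. Python 3.11.15, numpy 2.4.6, pandas 2.3.3, statsmodels 0.14.6 and matplotlib 3.10.9 were used.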

Additional observations from a re-analysis of the deposited data

How the results depend on the processing

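Values were called alike when they moved by less than 0.31, the SD of the difference between designs for shared probe sets. Of 89 values of single members under the alternatives, 82 stayed within that, and Emx2, Dmrta2, Lhx2, Otx2, Nr2f1 and Nr2f2 kept their sign in every alternative that gave them a value. Many of these values could not differ from the first. Emx2, Dmrta2, Lhx2 and Nr2f1 each had 1 probe set, above every floor tried. For them the settings for floor, brightest probe set, suffix and single design repeated the same value by construction. Only the pseudocount, centring and normalization settings could move it. Emx1 moved from -0.13 to 1.18 with no floor and to 0.39 with a pseudocount, since its dim probe set then entered. Dmrt3 moved from -0.16 to 0.17 with the floor at the 30th percentile and to 0.20 with no floor. Otx1 became a ratio of 2.65 at the lower floor and with no floor, and a bound of 0.81 at the floor of the 70th percentile. The median of the members was 0.31 with the floor at the 30th percentile, 0.35 with no floor, 0.32 with a pseudocount and 0.31 with both Otx genes at their bounds, the last chosen after seeing the data, against -0.13; more members enter in each of these. The number of members with a 2-fold ratio or bound, 1 with the settings used, was 0 with the floor at the 70th percentile, 2 with no floor and 0 on MOE430A alone. Of 103 list medians under the alternatives, 97 stayed within 0.31, and 15 changed sign. The diencephalon and midbrain median, over 2 genes, was 0.23 with the floor at the 30th percentile, 0.29 with no floor, 0.18 on MOE430A alone, and -0.48 on MOE430B alone and with the floor at the 70th percentile. The endothelial median, -0.14 with the settings used, was 0.37 over 1 gene with the floor at the 70th percentile, 0.14 over 3 genes when probe sets named _x_at, _s_at or _a_at were left out, and 0.002 with the floor at the 30th percentile. The other sign changes were 4 of the anterior and antihem median, up to 0.04, 2 of the hem median, down to -0.01, and 2 of the mesenchymal median, down to -0.13, besides 4 of the diencephalon and midbrain median. No paired analysis was possible because each genotype has 1 RNA sample. Signals near the floor limit the Otx, Emx1 and Dmrt3 values.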

Other observations

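RefSeq genes within 100000 bases of a member, a rule written with the members' values known, were read for antisense and non-coding neighbours. A830082K12Rik, a non-coding gene that overlaps Nr2f1, had 4 probe sets on MOE430B. Of these 1442600_at read 2666 in wild-type spheres and 2204 in knockout spheres, a log2 ratio of -0.27, and 1458470_at read 1257 and 1767, a log2 ratio of 0.50, and the other two were below the floor in both samples. This neighbour therefore gave no single direction beside the lower Nr2f1. Gm38604, a non-coding gene 3061 bases from Nr2f1, was below the floor in both samples. Its probe sets read 218 and 242 in wild-type spheres and 155 and 140 in knockout spheres. Non-coding B130024G19Rik, which overlaps Nr2f2, was also below it, at 19.4 in wild-type spheres and 63.9 in knockout spheres. So was 2700089I24Rik, 27779 bases from Emx2, at 580 and 242. Otx2os1, which lies 1644 bases from Otx2, read 791 in wild-type spheres and 178 in knockout spheres, below the floor in both. 4930572G02Rik, a non-coding gene 86602 bases from Otx2, was measured and read 1610 and 1325, a log2 ratio of -0.28, on the opposite side to Otx2.

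Among protein-coding neighbours, Sfxn5 beside Emx1 was at 0.50 on its measured probe set, with signals of 2940 and 4154. Ehbp1, 4174 bases from Otx1, read 1829 in both samples, a log2 ratio of -0.01, while Otx1 was at least 3.26-fold higher in knockout spheres. Fam172a beside Nr2f1 was at -0.32, and Faf1 beside Dmrta2 had probe sets at 0.16 and -0.07. The sources used here do not give the strand each probe set reads.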
